A study of Coprinopsis cinerea with 10 samples.

Results

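Coprinopsis cinerea, an ink cap mushroom that fruits on agar, carries 8 genes on this array whose product is named phosphatidylserine decarboxylase. The 4 described here, CC1G_09237, CC1G_09238, CC1G_09240 and CC1G_09208, were picked from those 8, out of 13320 genes measured, as induced during fruiting, with their values in all 5 stages in view. The exact comparison behind the choice is not recorded. Their difference from vegetative mycelium is therefore given below as a description with no test. The steps between fruiting stages do not contain the mycelium and were tested, but the choice may have drawn on them too. CC1G_02871, CC1G_06249, CC1G_09044 and CC1G_09241 carry the same product name and serve as the background.

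The arrays covered 5 stages with 2 biological replicates each. These were vegetative mycelium, fruiting initials (about 2 mm in height), stage 2 primordia (1 cm), young fruiting bodies (2 cm), and expanded caps cut from mature mushrooms of 4 cm. Each mycelium replicate pooled 5 plates and each other replicate pooled 4 to 5 structures, so a value is a mean over several of them. All samples were of 1 dikaryotic strain of 50% Okayama-7 origin, crossed back for 5 generations to Okayama-7, the monokaryon whose genome was sequenced. The strain is given as 98.44% homologous to it. Mycelium was grown at 37 °C, and fruiting was brought on at 25 °C with 12 h of light and 12 h of dark, so the mycelium differed from all fruiting stages in temperature and light as well as in stage. The last stage was cap tissue alone, so tissue and maturity cannot be told apart there. In RNA from whole tissue, fewer cells that use a gene and less RNA per cell cannot be told apart either.

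Phosphatidylserine decarboxylases remove the carboxyl group of the membrane lipid phosphatidylserine and so make phosphatidylethanolamine, one of the main phospholipids of eukaryotic membranes. They are made as proenzymes that cut themselves to form a pyruvoyl group, which takes the place of a bound cofactor. In budding yeast one such enzyme sits in the inner mitochondrial membrane and another in the Golgi and endosomes. Phosphatidylethanolamine is methylated to phosphatidylcholine, gives the ethanolamine phosphate bridge of GPI anchors, and carries the autophagy protein Atg8 on membranes. The same protein family also holds PsiD of Psilocybe mushrooms, which decarboxylates the free amino acid tryptophan on the route to psilocybin. The product names used here are those of the array's design, and they do not show on which substrate a gene's protein acts.

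Values are log2 intensities after robust multi-array averaging (RMA), with 2 blocks of 5 probes per gene on each array. Median intensities lay between 3268 and 3403, and the 2 arrays of a stage correlated at 0.9966 to 0.999 across genes. The floor was 4 times the level of random-sequence control probes, between 6.48 and 6.86 on the log2 scale. A gene counted as under it where neither array of the stage exceeded it. Of the 8 genes with this product, 0 were under it in any stage. All arrays shared 1 slide, with neighbouring positions for neighbouring stages, so position and stage cannot be told apart. As a check of the stage labels, galectin-1 (CC1G_05003), a fruiting body lectin, had a mean log2 level of 11.64 in mycelium, 13.86 in initials and 9.37 in mature caps. Galectin-2 (CC1G_05005) had 13.98, 14.56 and 12.49 in the same stages. Both lectins were thus higher in initials than in mycelium, and in caps both were lower than in mycelium.

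All 4 genes were near their highest level in initials and primordia, and all 4 dropped when the young fruiting body gave way to the mature cap. They differed in the level in mycelium and in how far they had already declined in the young fruiting body. In mature caps 3 of the 4 lay below their own mycelium level, and CC1G_09238 lay above it.

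CC1G_09208 showed the widest range of the 4 genes, 6.77 log2 units between its highest and lowest stage mean. Its log2 level was 9.03 and 9.15 in mycelium, 13.76 and 13.73 in initials, 13.88 and 13.79 in primordia, 13.72 and 13.71 in young fruiting bodies, and 7.27 and 6.86 in mature caps. The 3 early fruiting stages stood together, far above mycelium, and both cap arrays lay below both mycelium arrays. Initials were 25.2-fold, primordia 26.9-fold and young fruiting bodies 24.6-fold above mycelium, on the linear intensity scale. The cap arrays were only 0.55 and 0.06 log2 units above their floors, so this gene was close to the background there, and the 2 probe blocks of the first cap array differed by 0.70.

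CC1G_09238 had the largest difference from mycelium among the 4. Its log2 level was 9.41 and 9.39 in mycelium, 14.64 and 14.66 in initials, 14.64 and 14.58 in primordia, 13.95 and 13.92 in young fruiting bodies, and 10.36 and 10.19 in mature caps. Mycelium was its lowest stage, and it was the one gene of the 4 whose cap arrays both stayed above mycelium, by 0.88 ± 0.0566 log2 units (SE). Initials were 38.1-fold above mycelium, primordia 37.1-fold and young fruiting bodies 23.25-fold.

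CC1G_09237 was highest in initials and already declined in primordia. Its log2 level was 11.53 and 11.44 in mycelium, 14.00 and 13.89 in initials, 13.62 and 13.67 in primordia, 11.94 and 12.00 in young fruiting bodies, and 9.97 and 9.96 in mature caps. Initials were highest, the young fruiting body was back near mycelium, and caps were lowest, with no overlap between the arrays of any 2 stages. Initials were 5.49-fold above mycelium, young fruiting bodies 1.40-fold above it and caps 2.87-fold below it.

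CC1G_09240 had the smallest rise, from the highest mycelium level of the 4 genes. Its log2 level was 13.43 and 13.42 in mycelium, 14.55 and 14.65 in initials, 14.42 and 14.53 in primordia, 13.27 and 13.35 in young fruiting bodies, and 10.41 and 10.24 in mature caps. Initials and primordia were above mycelium, by 2.26-fold and 2.07-fold, while young fruiting bodies were slightly below it (-0.12 ± 0.0690, SE). Caps were 8.56-fold below mycelium, the largest measured deficit of the 4 genes. For CC1G_09208 it was 4.06-fold, but its caps were close to the floor, so that fold may be too small. Ranked by the difference between initials and mycelium among the 11171 genes above the floor in both, CC1G_09238 stood at position 20, CC1G_09208 at 34, CC1G_09237 at 232 and CC1G_09240 at 841. The 4 were picked as induced during fruiting, so high positions follow at least in part from that choice. Genes under the floor in mycelium or initials were not ranked, such as CC1G_14376 (mean 6.01 in mycelium, 11.14 in initials).

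**Figure D1:**
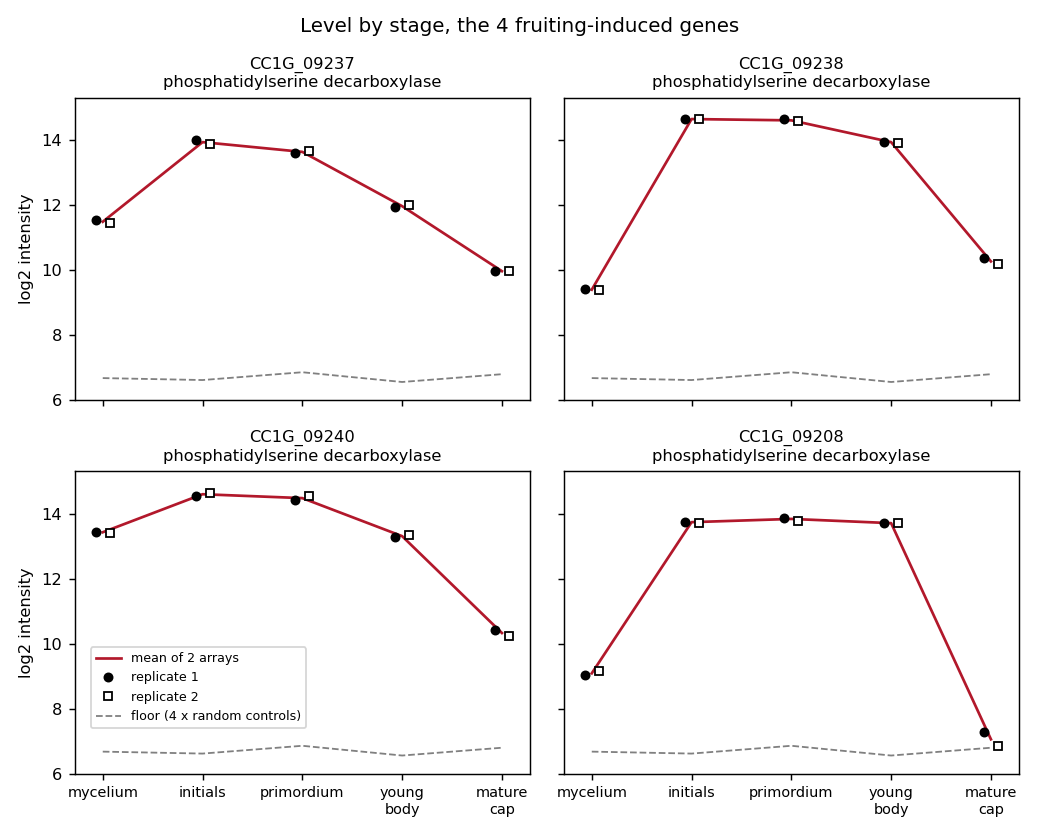
Log2 intensity (vertical axis) of the 4 genes in each array by stage (horizontal axis), with the mean of the 2 arrays as a line and the floor as a dashed line (the higher of the 2 arrays of a stage). Each gene is high in initials and primordia and drops in mature caps, where CC1G_09208 reaches 7.27 and 6.86, next to the floor.

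Between initials and primordia 1 of the 4 genes changed. CC1G_09237 fell by 0.30 ± 0.0514 (limma, adjusted p = 0.00338, n = 2 arrays per stage), and its primordium arrays lay below its initials arrays. The other 3 did not pass: CC1G_09238 changed by -0.04 ± 0.0566 (adjusted p = 0.622), CC1G_09240 by -0.13 ± 0.0690 (adjusted p = 0.178) and CC1G_09208 by 0.09 ± 0.125 (adjusted p = 0.587). A count of 1 of 4 called lower is near the background, since 24.5% of all genes were called lower and 23.5% higher at this step. The call for CC1G_09237 was lost with the first block of probes alone (-0.29, adjusted p = 0.0585).

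In young fruiting bodies the 3 adjacent genes had fallen and CC1G_09208 had not passed the test. CC1G_09237 fell by 1.67 ± 0.0514 from primordia (limma, adjusted p = 1e-05), a 3.19-fold drop. CC1G_09240 fell by 1.17 ± 0.0690, or 2.24-fold (adjusted p = 4.43e-05), and CC1G_09238 by 0.68 ± 0.0566, or 1.60-fold (adjusted p = 0.000154). In each of these 3 genes both young fruiting body arrays lay below both primordium arrays. CC1G_09208 changed by -0.12 ± 0.125 (adjusted p = 0.44). Of all genes, 24.8% were called lower and 24.0% higher, and the median change over all genes was -0.015 against -0.92 over the 4. The choice of the 4 may have drawn on this step, so the medians are a description. Whether CC1G_09208 differed from its 3 paralogs at this step was not tested.

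Of the 3 steps between fruiting stages, the step to the mature cap brought the largest change in all 4 genes, and all 4 fell. CC1G_09208 fell by 6.65 ± 0.125 on the log2 scale (limma, adjusted p = 2.27e-08), from a mean of 13.71 to 7.06, which is 100.1-fold. Among the 11086 genes above the floor in both stages this was the largest fall, but its cap arrays were only 0.55 and 0.06 above their floors. Genes that dropped under the floor in caps were not ranked, such as CC1G_13884 (mean 10.62 in young fruiting bodies, 3.60 in caps). CC1G_09238 fell by 3.66 ± 0.0566, or 12.7-fold (adjusted p = 1.19e-08), from 13.94 to 10.27. CC1G_09240 fell by 2.98 ± 0.0690, or 7.91-fold (adjusted p = 5e-08), and CC1G_09237 by 2.00 ± 0.0514, or 4.01-fold (adjusted p = 7.74e-08). The order of the 4 by the size of this fall was thus CC1G_09208, CC1G_09238, CC1G_09240 and CC1G_09237, the reverse of their order at the step before. Both steps share the young fruiting body arrays, so the orders are not independent. Calls were common at this step: 40.7% of all genes were called lower and 38.3% higher, while 14.8% were called lower by at least 2-fold, as all 4 of these genes were. Their median change was -3.32, against 0.024 over all genes. The 4 were chosen with these stages in view, so this contrast is a description.

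**Figure D2:**
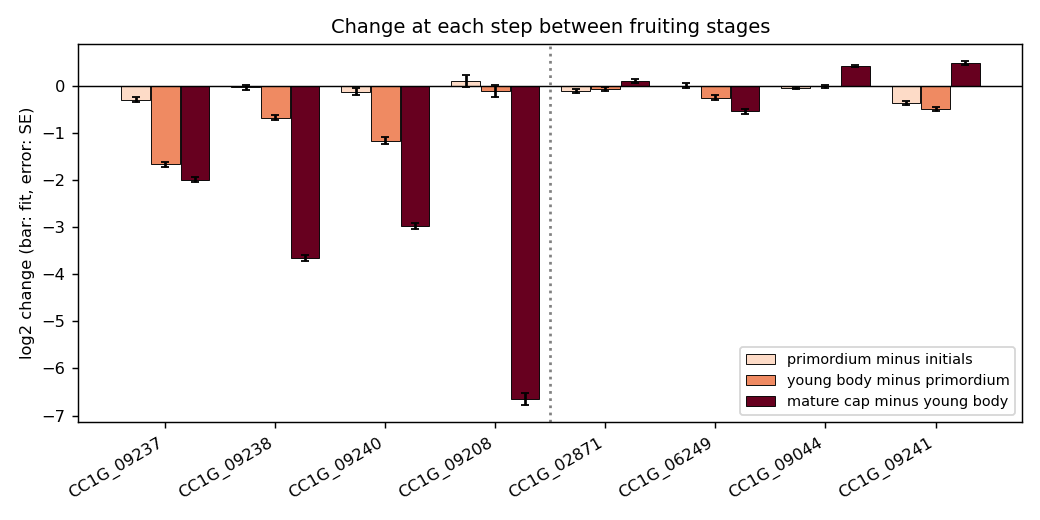
Log2 change (vertical axis, bars from the limma fit with SE as error bars) of the 8 genes with this product at the 3 steps between fruiting stages, with the 4 described genes left of the dotted line. The bars for the mature cap are the longest for each of the 4 genes and reach -6.65 in CC1G_09208; in the others they lie between -0.55 and 0.48.

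Ordering the stages within each gene shows which levels could be told apart. In CC1G_09208, primordia (13.84), initials (13.74) and young fruiting bodies (13.71) formed 1 plateau in which no pair differed by the test, the young fruiting body against initials included (-0.03 ± 0.125, adjusted p = 0.842). In CC1G_09238 and CC1G_09240, initials and primordia formed such a pair at the top, and young fruiting bodies lay below initials by 0.71 ± 0.0566 (limma, adjusted p = 4.38e-05) and 1.29 ± 0.0690 (adjusted p = 7.64e-06). In CC1G_09237 each fruiting stage differed from the next by the test, in the order initials, primordia, young fruiting bodies, caps. Against the initials, caps were lower by 4.38 ± 0.0566 in CC1G_09238, 4.28 ± 0.0690 in CC1G_09240, 3.98 ± 0.0514 in CC1G_09237 and 6.68 ± 0.125 in CC1G_09208, with adjusted p-values of at most 2.1e-08.

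As a description over the 10 arrays, which share stages and normalization, the profiles of the 4 genes fell into 2 closer pairs. CC1G_09237 and CC1G_09240 were closest, with a root mean square distance of 0.56 log2 units between their centred profiles (Pearson r = 0.932). CC1G_09238 and CC1G_09208 came next at 1.09 (r = 0.935). The least alike by correlation were the neighbours CC1G_09238 and CC1G_09240 (r = 0.66, distance 1.70). These last 2 genes lie next to each other on the chromosome.

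The other 4 genes with this product did not share the pattern as a group. The 4 described genes were picked out of the same 8, so this contrast follows at least in part from that choice. CC1G_02871, named phosphatidylserine decarboxylase 1, and CC1G_09044, named phosphatidylserine decarboxylase proenzyme 2, varied least. The stage means of CC1G_02871 spanned 0.19 log2 units, with arrays from 13.36 to 13.62, and none of its 3 steps between fruiting stages passed (adjusted p-values of 0.084, 0.179 and 0.106 by limma). The decline from initials to young fruiting bodies did (-0.19 ± 0.0434, adjusted p = 0.00811). With an intensity trend in the fit, the steps to primordia (-0.11, adjusted p = 0.0245) and to caps (0.09, adjusted p = 0.0398) passed, as did the step to caps with arrays centred on their medians (0.14, adjusted p = 0.0212). CC1G_09044 lay between 13.07 and 13.18 in all 8 arrays before the cap and at 13.49 and 13.48 in caps, a rise of 0.41 ± 0.0244 (limma, adjusted p = 4.28e-06). At this step the 4 genes fell. Its change in primordia did not pass (-0.06 ± 0.0244, adjusted p = 0.0678), but passed with centred arrays (adjusted p = 0.038) and with an intensity trend (adjusted p = 0.0353).

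CC1G_06249 was also higher in fruiting than in mycelium, and it stayed so in caps. Its log2 level was 11.99 and 12.00 in mycelium, 14.13 and 14.12 in initials, 14.10 and 14.15 in primordia, 13.83 and 13.90 in young fruiting bodies, and 13.23 and 13.40 in caps. All 8 fruiting arrays lay above both mycelium arrays. Its excess over mycelium in initials, 4.38-fold, was larger than the 2.26-fold of CC1G_09240, so a rise on fruiting did not by itself separate the 4 genes from the rest. It fell by 0.26 ± 0.0568 in young fruiting bodies (limma, adjusted p = 0.00914), a call lost without primordium replicate 2 (adjusted p = 0.0511) or without young fruiting body replicate 1 (adjusted p = 0.0591). Its fall at the cap was 0.55 ± 0.0568 (limma, adjusted p = 8.06e-05), 1.47-fold, and caps remained 2.49-fold above mycelium.

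CC1G_09241 lies directly beside CC1G_09240, and its differences had the opposite sign in initials against mycelium and in caps against young fruiting bodies, but the same sign at the 2 steps between. Its log2 level was 14.05 and 14.01 in mycelium, 13.50 and 13.51 in initials, 13.15 and 13.12 in primordia, 12.61 and 12.66 in young fruiting bodies, and 13.07 and 13.15 in caps. Mycelium was its highest stage and the young fruiting body its lowest, with a decline at each step up to there. It fell by 0.37 ± 0.0362 in primordia (limma, adjusted p = 0.000319) and by 0.50 ± 0.0362 in young fruiting bodies (adjusted p = 8.87e-05), and rose by 0.48 ± 0.0362 in caps (adjusted p = 1.51e-05). Probes of close paralogs can share signal. How far they did so here was not tested.

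**Figure D3:**
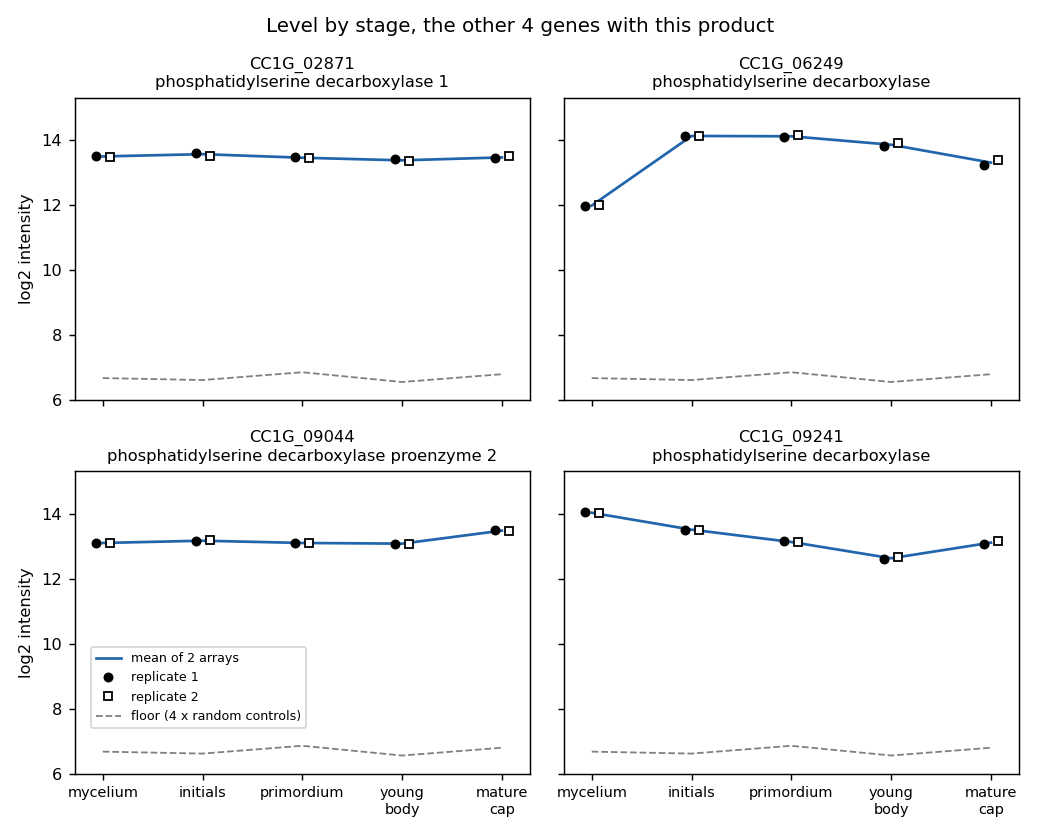
Log2 intensity (vertical axis) by stage (horizontal axis) of the other 4 genes with this product, with points for the 2 arrays, a line for their mean and the floor dashed, on the same scale as the plot of the 4 genes. CC1G_02871 and CC1G_09044 stay between 13.07 and 13.62, CC1G_06249 steps up from 11.99 to 14.13 between mycelium and initials, and CC1G_09241 declines from 14.03 to 12.63 before the cap.

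The rule did not use position, and the 4 genes lie on the same chromosome, though not all side by side. In the RefSeq annotation of assembly CC3, CC1G_09241, CC1G_09240, CC1G_09238 and CC1G_09237 follow each other with 0 genes of another product in between, and CC1G_09208 lies on the same chromosome with 27 genes between it and CC1G_09237. The remaining 3 genes with this product lie outside the stretch described here. That stretch, from 5 genes before CC1G_09240 to 5 genes after CC1G_09208, held 36 genes of other products, of which 1 was under the floor in every stage.

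Of these 36 neighbours, 16 rose and 15 fell in initials against mycelium, where 37.5% and 33.7% of all genes did. A rise of at least 2-fold was called in 11 (30.6%), against 9.01% of all genes. At the cap 12 rose and 22 fell, where 38.3% and 40.7% of all genes did. A fall of at least 2-fold was called there in 12 (33.3%, against 14.8% of all genes). Both a mean difference of at least 2-fold upward in initials and one of at least 2-fold downward in caps were seen in 378 genes in all (2.84%), among them 4 of the 8 genes with this product and 5 of the 36 neighbours (13.9%). These shares describe 1 chromosomal stretch chosen for its decarboxylase genes, and no test of the stretch was made.

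On the far side of CC1G_09241 stood 3 genes that all fell in caps. CC1G_09244, a delta-12 fatty acid desaturase, an enzyme that puts a second double bond into oleate, rose by 1.16 ± 0.0449 in initials (limma, adjusted p = 7.59e-07) and fell by 2.98 ± 0.0449 in caps (adjusted p = 1.09e-08). CC1G_09243 and CC1G_09242, listed without a named function, went on rising in primordia (1.12 ± 0.0607 and 1.14 ± 0.0447) and fell by 2.80 ± 0.0607 and 3.21 ± 0.0447 in caps. Their highest stage was the young fruiting body, later than that of the decarboxylase genes. CC1G_09241, lower in initials than in mycelium, thus stood between genes that were higher there on both sides.

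On the near side of CC1G_09237 the pattern was mixed. CC1G_09235, a hypothetical protein, resembled CC1G_09237 in shape: it rose by 1.77 ± 0.0758 in initials, and fell by 2.29 ± 0.0758 in young fruiting bodies and by 1.40 ± 0.0758 in caps (limma, adjusted p of at most 1.11e-05 for all 3). CC1G_09233 rose by 1.85 ± 0.0599 in initials and fell at every later step. CC1G_09236, which lies between CC1G_09237 and CC1G_09235, instead fell by 0.24 ± 0.0614 in initials, rose by 0.52 ± 0.0614 and 0.42 ± 0.0614 at the next 2 steps, and fell by 2.62 ± 0.0614 in caps.

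Farther along, CC1G_09229 and CC1G_09224 rose by 2.70 ± 0.108 and 3.14 ± 0.0785 in initials and fell at both steps up to the young fruiting body. At the cap CC1G_09229 rose by 0.63 ± 0.108 and CC1G_09224 fell by 0.40 ± 0.0785. CC1G_09221 was under the floor in mycelium and caps and had a mean log2 level of 8.50 in initials. CC1G_09225 was highest in mycelium (13.21) and fell at every step, to 8.55 in caps.

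The genes around CC1G_09208 had other profiles. CC1G_09209, beside it, fell by 0.85 ± 0.0747 in initials and fell by 2.17 ± 0.0747 in caps. CC1G_09212 fell by 1.09 ± 0.164 in initials and fell by 2.48 ± 0.164 in caps. CC1G_09207, its neighbour on the other side, and CC1G_09216 rose in initials (1.60 ± 0.0516 and 1.25 ± 0.0631) and rose again in caps, by 2.21 ± 0.0516 and 2.33 ± 0.0631, where CC1G_09208 was lowest. CC1G_09206 rose by 0.13 ± 0.0395 in initials, fell by 0.29 ± 0.0395 in young fruiting bodies and fell by 2.84 ± 0.0395 in caps. CC1G_09205 was above the floor only in mycelium, at a mean of 8.78.

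**Figure D4:**
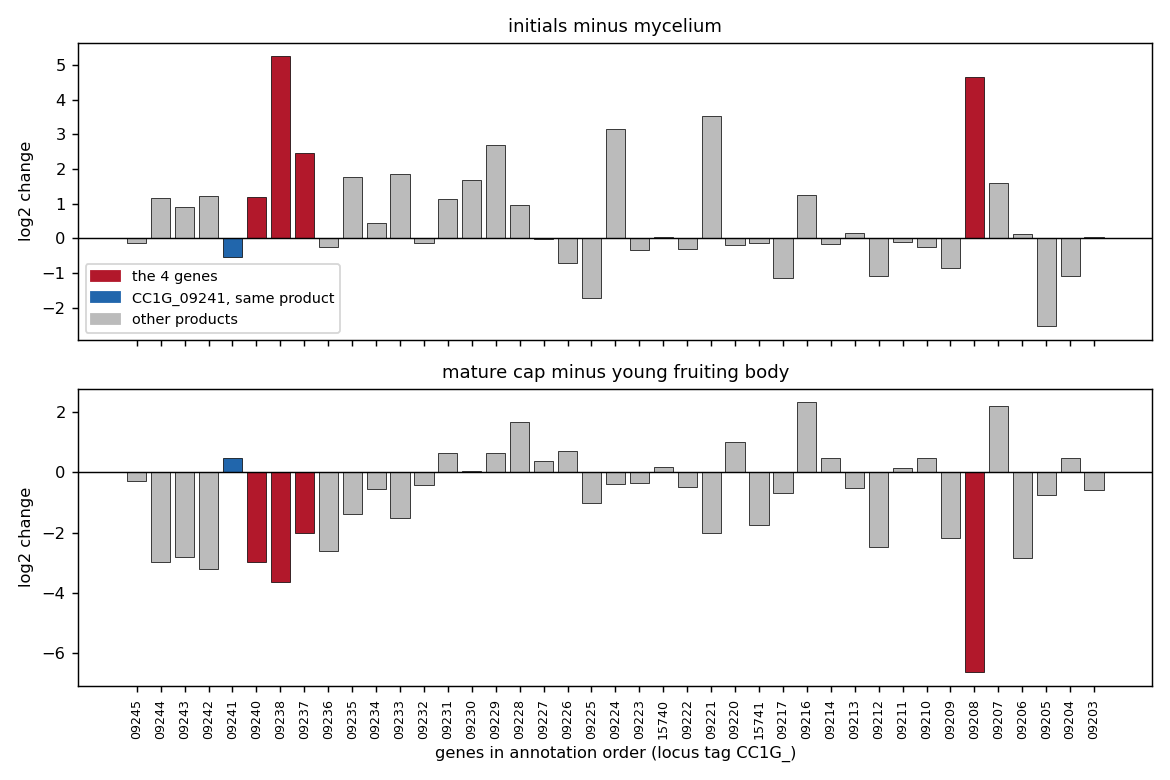
Log2 change (vertical axis, bars from the limma fit) of the genes around the decarboxylase loci in annotation order (horizontal axis, not to distance), for initials minus mycelium (top) and mature cap minus young fruiting body (bottom). CC1G_09208 (4.65 and -6.65) lies between CC1G_09209 (-0.85 and -2.17) and CC1G_09207 (1.60 and 2.21). CC1G_09240, CC1G_09238 and CC1G_09237 rise in the top plot and fall in the bottom plot. The genes directly flanking these are CC1G_09241 (-0.53 and 0.48) and CC1G_09236 (-0.24 and -2.62).

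The enzymes around phosphatidylserine and phosphatidylethanolamine had narrower ranges over the stages than the 4 genes, which is a description, since the 4 were chosen with their stage values in view. The 11 other phospholipid synthesis genes spanned a median of 0.55 log2 units between their highest and lowest stage means (0.16 to 1.88), against 0.94 over all genes and 3.98 to 6.77 in the 4. In initials 3 of the 11 rose and 6 fell. In primordia 2 rose and 1 fell, in young fruiting bodies 2 and 2, and in caps 5 and 5. Their median log2 change was -0.17 in initials and 0.04 in caps, against 0.022 and 0.024 over all genes. The shares of all genes given for each step above are the background for these counts.

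Both enzymes that make phosphatidylserine were singled out for that role after their values were seen. CC1G_11941, the CDP-diacylglycerol-serine O-phosphatidyltransferase that makes phosphatidylserine in fungi, had stage means from 13.14 to 13.30, and a rise of 0.12 ± 0.0339 in caps was its one called step (limma, adjusted p = 0.0137). CC1G_08005, named phosphatidylserine synthase 2 after an animal enzyme that swaps head groups between phospholipids, rose by 0.41 ± 0.0476 in initials (adjusted p = 0.000209), and no later step passed. Neither was called lower at the cap.

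Downstream, CC1G_01636, the phosphatidylethanolamine N-methyltransferase that starts the conversion to phosphatidylcholine, fell at each step up to the young fruiting body, by 0.34, 0.40 and 0.36 (SE 0.0336), and rose by 0.44 ± 0.0336 in caps. A gene annotated for making CDP-choline, on the other route to phosphatidylcholine, is CC1G_09704, which spanned only 0.26. CC1G_00938, with the same product name, had the widest range of the 11 (1.88). It rose by 1.70 ± 0.0252 in initials (limma, adjusted p = 1.48e-08) and fell by 1.27 ± 0.0252 in caps (adjusted p = 2.71e-08). CC1G_11647, named for the step toward phosphatidylglycerol, fell by 0.39 ± 0.0255 in initials and by 1.13 ± 0.0255 in caps.

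Among the 10 phospholipases, 4 rose and 5 fell in initials, and 4 rose and 6 fell in caps. The shares of all genes called higher and lower were 37.5% and 33.7% in initials, and 38.3% and 40.7% in caps. CC1G_03363, a phospholipase, showed the widest range (3.38): it rose by 0.26 ± 0.0751 in initials and then fell by 0.58, 1.17 and 1.64 at the following steps. CC1G_02616, named a phospholipase D for N-acyl-phosphatidylethanolamine, fell at each step up to the young fruiting body and rose by 1.07 ± 0.0481 in caps. CC1G_14629 rose by 0.19 to 0.26 at the first 3 steps and fell by 1.25 ± 0.0548 in caps. The 3 phospholipid-transporting ATPases, which move lipids such as phosphatidylserine and phosphatidylethanolamine between membrane leaflets, all rose in caps, by 0.99 ± 0.0364 (CC1G_10178), 0.77 ± 0.0345 (CC1G_12291) and 0.33 ± 0.0492 (CC1G_07338). The first 2 of these had fallen in initials, by 0.73 ± 0.0364 and 0.47 ± 0.0345.

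Of the processes that consume phosphatidylethanolamine, GPI anchor synthesis had 1 of 13 genes up and 7 down in initials, 6 up and 0 down in primordia, and 0 up and 10 down in caps. Of all genes, 37.5% were called higher and 33.7% lower in initials, 23.5% and 24.5% in primordia, and 38.3% and 40.7% in caps. The median log2 change of the 13 was -0.24 in caps, against 0.024 over all genes. GPI mannosyltransferase 2 (CC1G_07396) fell by 3.44 ± 0.0521 there (limma, adjusted p = 1.1e-08), and GPI mannosyltransferase 1 (CC1G_01039) by 1.30 ± 0.0294. The GPI16 subunit of the transamidase (CC1G_03111), which attaches the anchor to proteins, fell by 0.45 ± 0.0328. Of 6 autophagy genes, 4 rose and 0 fell in initials, and 3 rose and 3 fell in caps, beside the same shares of all genes. Autophagy protein 7 (CC1G_10165), the activating enzyme for Atg8, fell by 0.96 ± 0.0854 in primordia, rose by 1.06 ± 0.0854 in young fruiting bodies and by 0.57 ± 0.0854 in caps. CC1G_01076 (autophagy-type protein 9) rose by 0.30 ± 0.0252 and CC1G_08986 (type 18) by 0.41 ± 0.0873 in caps.

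**Figure D5:**
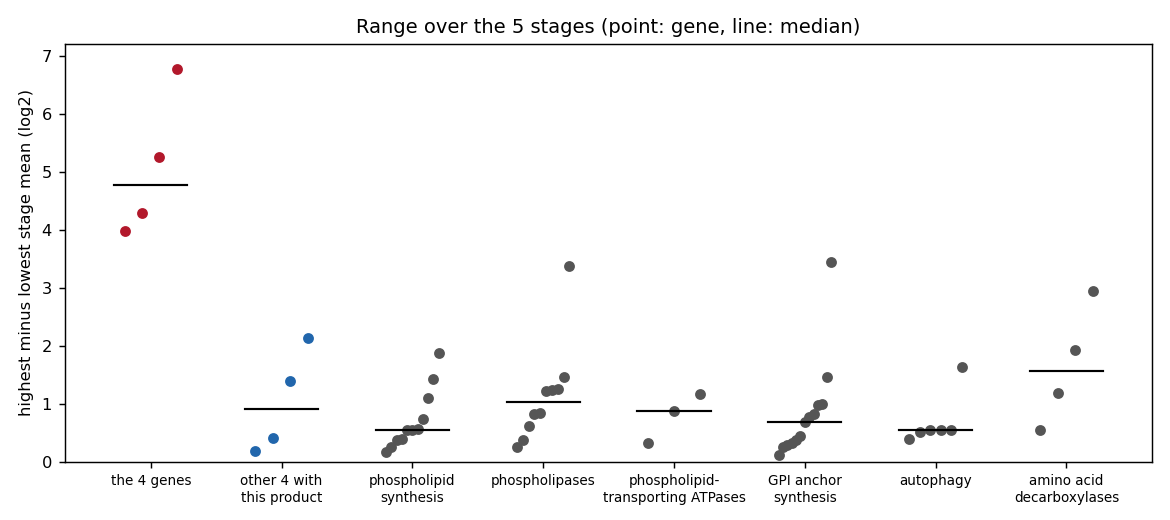
Difference between the highest and the lowest stage mean of each gene (vertical axis, log2 units; points are genes and lines the median of a list) for the 4 genes, the other 4 with this product and 6 related lists. The 4 genes lie between 3.98 and 6.77, and the widest gene of any related list is at 3.44; the 4 were chosen with their stage values in view, so the plot describes and does not test.

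The genes whose profiles over the 10 arrays lay closest to those of the 4 are named here as a description. Likeness was the root mean square distance between centred log2 values, and the 3 nearest genes were taken for each. For CC1G_09237 they were CC1G_14963 (predicted protein, 0.166), CC1G_01546 (aryl-alcohol oxidase, 0.253) and CC1G_07203 (predicted protein, 0.293). For CC1G_09240 they were CC1G_08454 and CC1G_07877 (hypothetical proteins, 0.23 and 0.243) and the FunK1 protein kinase CC1G_03062 (0.262). For CC1G_09238 they were CC1G_14376 (predicted protein, 0.319), the metalloprotease CC1G_02824 (0.38) and CC1G_00966 (hypothetical protein, 0.411). CC1G_03062 was under the floor in caps, CC1G_14376 in mycelium and CC1G_02824 in both. Their distances thus rest in part on values that are only bounds.

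By distance CC1G_09208 had no neighbour as close, though by Pearson correlation its nearest gene had r = 0.998, the same as for CC1G_09237. Its nearest by distance were CC1G_02590 (delta 12 fatty acid epoxygenase, 0.653), CC1G_02589 (fatty acid conjugase, 0.698) and CC1G_13884 (predicted protein, 0.699). CC1G_02589 had mean log2 levels of 9.48 in mycelium, 12.89 in initials, 12.96 in primordia, 12.89 in young fruiting bodies and 7.54 in caps. Enzymes of both names, known from plants, belong to the same family as the fatty acid desaturases. In caps CC1G_02590 and CC1G_13884 were under the floor (means 6.23 and 3.60), and CC1G_09208 itself was close to it. The distances to these genes thus rest in part on values that are only bounds. By Pearson correlation in place of distance, 1 of the 3 nearest genes was shared for CC1G_09237 and 0 for each of the other 3, so these names depend on the measure.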

How the data were processed

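Total RNA of 10 samples was Cy3-labelled and hybridised to one-colour NimbleGen arrays, per the labels. The deposited intensity values are linear, 1 per gene and block of probes, summarised by the authors with RMA, per the names and headers of the files. The number of probes behind each value (unit other) was deposited beside them and used only for that count. Nothing in the sources used here names the software or the genome build. The deposited value table equalled the mean log2 of both blocks for the 13304 genes it holds. Per the file headers, products came from the Broad Institute. Of 13320 genes, 13318 matched locus tags of the RefSeq table (assembly CC3), used only for gene order.

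The log2 values of both blocks were averaged per array, with no further normalization, pseudocount or filter. All 10 arrays entered 1 limma 3.58.1 fit in R 4.3.3 (stage as the only term, 5 residual degrees of freedom, Benjamini-Hochberg over all genes, threshold 0.05), tested on simulated data. Changes are log2 ± SE. The number of arrays limits the precision. Members and lists were chosen with earlier results of these data known. The text names the 8 genes with this product, the 3 widest-ranging genes per list, and neighbours whose stage means span at least 2 log2 units. It also names the 3 nearest profiles, both galectins and, outside that rule, CC1G_11941, CC1G_08005 and CC1G_09704. A gene under the floor in a stage has only a bound there, so no fold is given. Sequences were not analysed here.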

Additional observations from a re-analysis of the deposited data

How the results depend on the processing

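The results were recomputed with the replicate number as a block, quantile normalization, median-centred arrays, either block of probes alone, a filter at 4 times the controls, the deposited value table, an intensity trend, each array left out, and the 3 pairs of mycelium, initials and young fruiting body averaged. With the replicate block 1, 3 and 4 of the 4 genes were called at the 3 steps, as without it; deviations of same-numbered arrays correlated from -0.024 to 0.503 over 10 pairs of stages, with 8 of the 10 above 0.1, and the labels do not say what a number shares, so pairing was neither assumed nor tested further. The count in primordia was 0 with block 1 alone, which leaves fewer probes, and no other setting changed these 3 counts. Of 228 recomputed changes of the 4 genes between fruiting stages, 226 kept their direction and their side of the threshold. The exceptions were CC1G_09237 in primordia with block 1 alone (-0.29) and CC1G_09238 in primordia with block 2 alone (0.00). The change of CC1G_06249 in primordia, which did not pass, turned sign with quantile normalization (0.00), block 2 alone (0.02) and with initials replicate 1 or primordium replicate 1 left out (range over arrays left out -0.03 to 0.02). Its fall in young fruiting bodies was also lost with averaged pairs (adjusted p = 0.147). Averaged pairs left 1684 genes called in primordia in place of 6397, and 2269 in young fruiting bodies in place of 6499. The fall of CC1G_09208 in caps ranged from -6.94 with block 2 alone to -6.35 with block 1 alone. The cause of these shifts was not tested. The number of arrays limits the precision.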

Other observations

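Enzymes that decarboxylate free amino acids made up a list of 4 genes, and at the cap 3 of them rose and 1 fell. In initials, too, 3 rose and 1 fell. Of all genes, 38.3% were called higher and 40.7% lower at the cap, and 37.5% and 33.7% in initials. Of the glutamate decarboxylases, which make gamma-aminobutyrate, CC1G_05236 rose by 1.79 ± 0.0589 in initials (limma, adjusted p = 3.61e-07) and by 1.85 ± 0.0589 in caps (adjusted p = 1.94e-07). CC1G_03790 fell by 0.19 ± 0.0488 in initials and rose by 1.93 ± 0.0488 in caps (adjusted p = 7.26e-08). The aromatic-L-amino-acid decarboxylase CC1G_02020 rose by 0.85 ± 0.0339 in initials and at both following steps, and fell by 0.18 ± 0.0339 in caps (adjusted p = 0.00212).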
